A study of Mus musculus with 9 samples.

Results

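9530053A07Rik is a mouse gene with only a clone name, and it was among the most heavily sequenced transcripts of every prostate library in this series. It is 1 gene of 54532 in the deposited count table and 1 of 16836 that passed the filter on low counts. It was chosen on measured values, namely its share of each library's reads, its spread within and between genotypes and the genes that follow it across libraries. Those 3 quantities are therefore given as descriptions, with no test. Bulk RNA-seq was made from prostates of KO mice (Srd5a2-/-), Het mice (Srd5a2+/-) and WT mice, with 3 libraries per genotype and 9 in all. Srd5a2 encodes a steroid 5-alpha-reductase, an enzyme that makes dihydrotestosterone. The line was founded by crossing Het males to C57BL6 WT females, and KO males were obtained by breeding the offspring on to a later generation. The labels give neither age nor lobe and do not say that each library is a separate animal. A p-value therefore sets a difference between genotypes only against the spread of these libraries, which may be technical. Total counts ran from 16233392 to 24017791 per library. In CPM (counts scaled to library size, here by edgeR's TMM method), Srd5a2 itself stood at 0.933, 0.511 and 1.15 in KO, at 3.67, 5.19 and 2.37 in Het, and at 2.30, 5.50 and 8.81 in WT. All 3 KO libraries lay below the others.

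The rodent prostate is made of paired lobes whose luminal cells each secrete their own set of abundant proteins into the seminal fluid, under androgen control. RefSeq lists FCGBP as another name of 9530053A07Rik, and the next protein-coding gene upstream on the chromosome is Fcgbp, IgG Fc-binding protein. Proteins of this family are large, secreted and cysteine-rich, built from repeated von Willebrand factor type D domains like those of the gel-forming mucins. In humans FCGBP is a component of mucus. The prostate lies against the seminal vesicles, whose Svs proteins form most of the copulatory plug, so RNA of that gland can be present in dissected prostate.

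9530053A07Rik (ENSMUSG00000078776) lies on chromosome 7 of GRCm38, from 28129466 to 28164811 on the plus strand, and no other gene of the deposited table overlaps it. GENCODE M21 gives 4 transcripts, of which the main one (9530053A07Rik-201) has 20 exons, 7922 bases and an open reading frame of 2581 codons. Fcgbp (ENSMUSG00000047730) lies 8.60 kb upstream on the same strand, from 28071236 to 28120862, and its main transcript also has 20 exons, with 7928 bases and 2583 codons. Over 7730 aligned bases the coding sequences were 83.0% identical. Cysteine codons made up 8.37% of the reading frame in 9530053A07Rik and 8.44% in Fcgbp, against a median of 2.12% over 20956 coding genes, and 98.4% of those genes had a lower share than 9530053A07Rik. The reading frame of 9530053A07Rik was longer than that of 98.9% of them. Reads from stretches the pair share exactly could be assigned to either gene.

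The longest run that both transcripts share without a mismatch is shown because it bears on that assignment. It is 206 bases long, is coding, and spans the junction of exons 14 and 15 in both genes (28155661 to 28156705 in 9530053A07Rik and 28105182 to 28106216 in Fcgbp, plus strand).
Shared run: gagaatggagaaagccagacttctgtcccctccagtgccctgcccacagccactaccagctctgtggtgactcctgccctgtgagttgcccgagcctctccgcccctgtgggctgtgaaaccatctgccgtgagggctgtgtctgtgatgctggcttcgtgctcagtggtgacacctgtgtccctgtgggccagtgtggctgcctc
Of all 100-base windows of the 9530053A07Rik transcript, 2.13% occur exactly in Fcgbp, and at 50 bases the share is 8.56%. At both window lengths no other gene in the annotation holds any of them, and no window occurs more than 1 time within 9530053A07Rik. Most windows of these lengths were thus found in 9530053A07Rik alone.

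The promoters of the pair are shown because the read counts assigned to the genes moved together across libraries. How many of the Fcgbp reads came from 9530053A07Rik was not tested. Each window runs from 250 bases before to 50 bases after the start in RefSeq's GRCm38.p6 models, and capitals mark TATATA (the TATA box letters) and AGAACA or its reverse complement TGTTCT (one arm of the androgen response element), searched on both strands.
9530053A07Rik promoter, chr7:28129216-28129515, plus strand: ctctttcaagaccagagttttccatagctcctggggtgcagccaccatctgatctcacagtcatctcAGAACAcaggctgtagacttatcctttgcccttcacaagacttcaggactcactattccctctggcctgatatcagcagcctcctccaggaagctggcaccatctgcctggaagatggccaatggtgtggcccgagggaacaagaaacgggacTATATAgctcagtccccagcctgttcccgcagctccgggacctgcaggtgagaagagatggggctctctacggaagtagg
Fcgbp promoter, chr7:28070986-28071285, plus strand: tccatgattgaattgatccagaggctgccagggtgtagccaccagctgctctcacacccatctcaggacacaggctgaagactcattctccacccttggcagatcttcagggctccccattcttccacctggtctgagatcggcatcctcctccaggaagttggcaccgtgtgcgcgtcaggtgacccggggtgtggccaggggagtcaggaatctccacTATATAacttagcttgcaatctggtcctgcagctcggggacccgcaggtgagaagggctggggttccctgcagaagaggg
The windows were 72.6% identical over 296 aligned bases. TATATA begins 30 bases before the start in both, and 5.94% of 27025 promoters of the same length hold it. AGAACA occurs 1 time, beginning 183 bases before the start, in 9530053A07Rik and not in the Fcgbp window, and 19.0% of promoters hold it on either strand. The full palindrome, AGAACA followed by any 3 bases and TGTTCT, occurs in neither window and in 0.0037% of promoters. A match describes the letters only and says nothing of binding.

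9530053A07Rik took 6.996%, 5.12% and 2.18% of all reads in KO libraries 1 to 3, then 6.65%, 1.28% and 2.26% in Het, and 14.8%, 7.73% and 6.04% in WT. The Wilson 95% intervals are narrow (for example 14.76% to 14.79% in WT library 1 and 1.27% to 1.28% in Het library 2) and cover counting error only. Het library 2 was lowest with 306728 reads and WT library 1 highest with 2839784 reads, and the highest share was 11.6 times the lowest. By reads it had rank 1 of all genes in KO libraries 1 and 2 and in WT libraries 1 and 2, rank 2 in Het library 1 and WT library 3, and rank 4 or 5 in the others.

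The share averaged 4.76% ± 2.43 in KO, 3.40% ± 2.86 in Het and 9.52% ± 4.64 in WT (SD, n = 3 each). The genotype ranges overlapped in every pair: KO library 1 and Het library 1 both lay above WT library 3. On the log2 CPM scale the means were 15.33 in KO, 14.77 in Het and 16.42 in WT, and the SD within genotypes was 0.91. The difference in means was -1.65 in Het against WT, -1.09 in KO against WT and 0.56 in KO against Het. In size, Het against WT was over that SD, KO against WT slightly over it and KO against Het under it. The fitted log2 fold change (edgeR) was -1.05 (SE 0.64) in KO against WT, -1.44 (SE 0.64) in Het against WT and 0.40 (SE 0.63) in KO against Het. Without Het library 1 the Het against WT value was -2.35 and the KO against Het value 1.31, and without Het library 2 the KO against Het value was -0.0024, and without KO library 1 it was -0.0077. Without WT library 1, KO against WT was -0.56. The direction in KO against Het thus rested on KO library 1 and on Het library 2, while both comparisons with WT stayed below 0 with any 1 library left out.

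**Figure D1:**
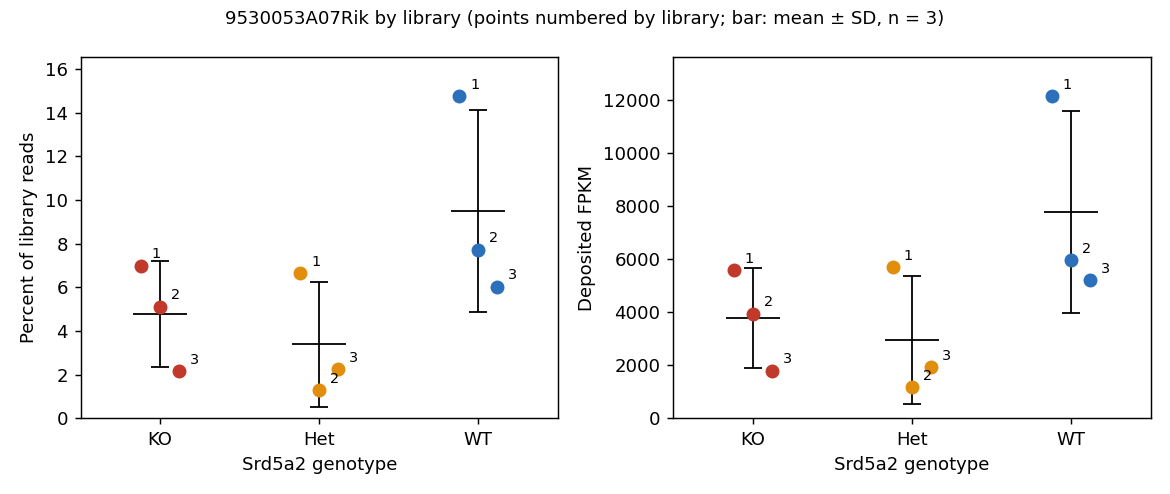
9530053A07Rik in each library, as a percent of reads (left) and as deposited FPKM (right), by Srd5a2 genotype. Points are libraries with their number and bars are means ± SD (n = 3); WT library 1 stands at 14.8% of reads, WT library 2 lies above every KO and Het library in percent of reads, and WT library 3 lies below KO library 1 and Het library 1.

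Most of the variation of 9530053A07Rik lay within genotypes: 53.9% of its sum of squares over the 9 libraries on the log2 scale, against 46.1% between genotypes. For the median gene among 9341 with a mean of at least 10 CPM, the share between genotypes was 24.3%. Its SD over the 9 libraries was 1.07, larger than that of 96.0% of these genes (median 0.28). The gene was therefore abundant and also among the more variable, and a library's genotype did not fix its level.

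Its place among reads also reflects its length. Reads per kilobase (FPKM as deposited, on a gene model of 11843 bases) were 5583, 3944 and 1799 in KO, then 5689, 1189 and 1922 in Het, and 12163, 5963 and 5218 in WT. On that per-length scale its rank ran from 4 (WT library 1) to 22 (KO library 3), against 1 to 5 by reads. The model used for these FPKM values is 1.49 times as long as the main transcript (3915 of its 3921 further bases lie only in 2 transcripts that GENCODE annotates as retained introns), so FPKM is lower by that factor than on the length of the main transcript. As a part of the FPKM sum it made up 1.21%, 0.930% and 0.346% in KO, 1.23%, 0.207% and 0.396% in Het, and 3.36%, 1.52% and 1.05% in WT. Svs2, at 1985 bases, had a mean of 36069 FPKM against 4830 FPKM for 9530053A07Rik, while their mean shares of reads were 6.99% and 5.89%.

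Besides 9530053A07Rik, 5 genes averaged over 1% of reads: the seminal vesicle genes Svs2, Svs5 and Svs4, the ventral lobe gene Sbp (spermine-binding protein) and mt-Co1, a subunit of cytochrome oxidase. The 6 together took between 17.7% (WT library 2) and 32.3% (Het library 2) of reads. Svs2 held 3.32%, 4.45% and 7.71% in KO, 0.386%, 20.9% and 7.48% in Het, and 4.86%, 1.58% and 12.3% in WT. Sbp held 3.54%, 3.72% and 5.60% in KO, 14.3%, 0.000658% and 11.2% in Het, and 9.89e-05%, 5.92% and 0.00154% in WT. The 3 libraries nearly without Sbp included both the highest (WT library 1) and the lowest (Het library 2) share of 9530053A07Rik.

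Reads of one gene take room from the others, so the share was also computed without them. Among reads outside the other 5 genes, 9530053A07Rik made up 8.04%, 5.94% and 2.83% in KO, 7.93%, 1.85% and 2.92% in Het, and 16.0%, 8.59% and 7.58% in WT. The range was 8.66 times, against 11.6 times over all reads, and the libraries kept their extremes. The 11 genes of the seminal vesicle list together held 10.2%, 10.6% and 19.5% of reads in KO, 0.653%, 32.6% and 11.1% in Het, and 7.19%, 3.34% and 21.3% in WT. Het library 2, richest in these, was poorest in 9530053A07Rik. Het library 3, with 11.1%, was close to KO libraries 1 and 2 in seminal vesicle reads and far below them in 9530053A07Rik. Pearson's r between the log2 summed CPM of the list and log2 CPM of 9530053A07Rik was -0.53. Of the 11 genes, 2 had a positive r (median -0.13). With each genotype's mean removed, r ran from -0.88 (Svs4) to -0.58 (Sva), except in Gm1110 (0.72). The reason for this inverse relation was not tested. Outside the seminal vesicle list its share averaged 5.41% ± 2.56 in KO, 3.71% ± 2.60 in Het and 10.5% ± 4.67 in WT (SD, n = 3 each).

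**Figure D2:**
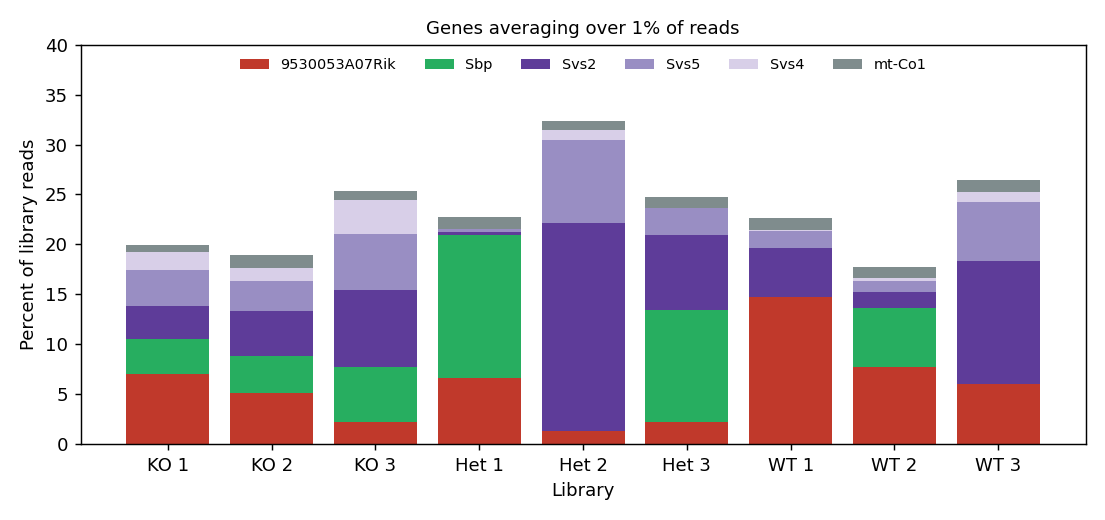
Percent of each library's reads taken by the 6 genes that average over 1%, stacked, with 9530053A07Rik at the base. WT library 1 is led by 9530053A07Rik at 14.8%, Het library 2 by Svs2 at 20.9% and Het library 1 by Sbp at 14.3%.

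RNA of the luminal keratins moved far less than the transcript. Krt8, a keratin of luminal cells, stood at 515, 461 and 491 CPM in KO, 548, 428 and 511 CPM in Het, and 442, 441 and 449 CPM in WT. Krt18, its partner, ran from 723 to 965 CPM in KO, 763 to 985 CPM in Het and 870 to 897 CPM in WT. There were 32.9 reads of 9530053A07Rik per Krt8 read in Het library 2 and 335 in WT library 1, a range of 10.2 times. In bulk tissue, fewer cells of one lobe and less RNA per cell cannot be told apart, and the lobes in each sample are not given.

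Some genes followed 9530053A07Rik from library to library. Likeness was measured as Pearson's r of log2 CPM over the 9 libraries, for the other 9340 genes with a mean of at least 10 CPM. These correlations describe the libraries, which share depth, dissection and genotype structure, and carry no p. The median r was 0.03. Of the 9340 genes, 152 (1.63%) reached an r of 0.9 and 19 (0.203%) lay at -0.9 or below. In 64 of the 152, log2 CPM changed by at least 0.5 for each unit of log2 CPM of 9530053A07Rik, and the rest moved with it over a smaller range.

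The 12 genes most like it had r from 0.976 to 0.994, and 0.952 to 0.991 without the 2 libraries farthest from the median level (Het library 2 and KO library 3). They encode proteins of several kinds. Glb1l3, a beta-galactosidase-like gene, was closest (r = 0.994, rho = 0.967), at 351, 283 and 129 CPM in KO, 404, 66.2 and 117 CPM in Het, and 786, 426 and 328 CPM in WT. Ren1, which encodes renin, the protease that cuts angiotensinogen, had 992, 699 and 238 CPM in KO, 1172, 220.5 and 396 CPM in Het, and 2716, 1482 and 1172 CPM in WT (r = 0.983, rho = 0.95). Man1a, a Golgi mannosidase that trims N-glycans, had 791, 527 and 299 CPM in KO, 584, 146 and 227 CPM in Het, and 1256, 757 and 582 CPM in WT (r = 0.982, rho = 0.967). In all 3 genes WT library 1 was highest and Het library 2 lowest, as for 9530053A07Rik.

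Gsdma, a gasdermin (a family of pore-forming proteins), had r = 0.979 and rho = 0.95, at 573, 362 and 196 CPM in KO, 399, 106 and 141 CPM in Het, and 939, 568 and 525 CPM in WT. Mcoln2, an endolysosomal cation channel, had r = 0.978, with 7.16 CPM in Het library 2 and 119.9 CPM in WT library 1. Itpk1, an inositol phosphate kinase, had r = 0.980 and changed by 0.56 in log2 CPM for each unit of 9530053A07Rik. Rnf181, a ubiquitin ligase of the RING type, had r = 0.981 with a change of 0.18 per unit, and its extremes were 105 CPM (Het library 2) and 156 CPM (WT library 1). A high r thus did not imply a large range.

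The others of the 12 were Fcgbp, C1rl, related to complement C1r (r = 0.977, rho = 1), Lysmd1 (0.980), Pgm2l1, a glucose bisphosphate synthase (0.976), and Gm37223, a transcript with no functional name (0.986). Tgm4 stood just outside, with r = 0.976 (0.9763, against 0.9764 for Pgm2l1, the last of the 12). All 12 had negative fitted log2 fold changes in KO against WT (-1.48 to -0.18) and in Het against WT (-1.68 to -0.29), and positive ones in KO against Het (0.11 to 0.81), as had 9530053A07Rik. They were chosen on the same libraries, so those directions are not a separate result. With each genotype's mean removed, r of the 12 over the 9 libraries was 0.958 to 0.995, a value that the choice of the 12 largely fixes.

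**Figure D3:**
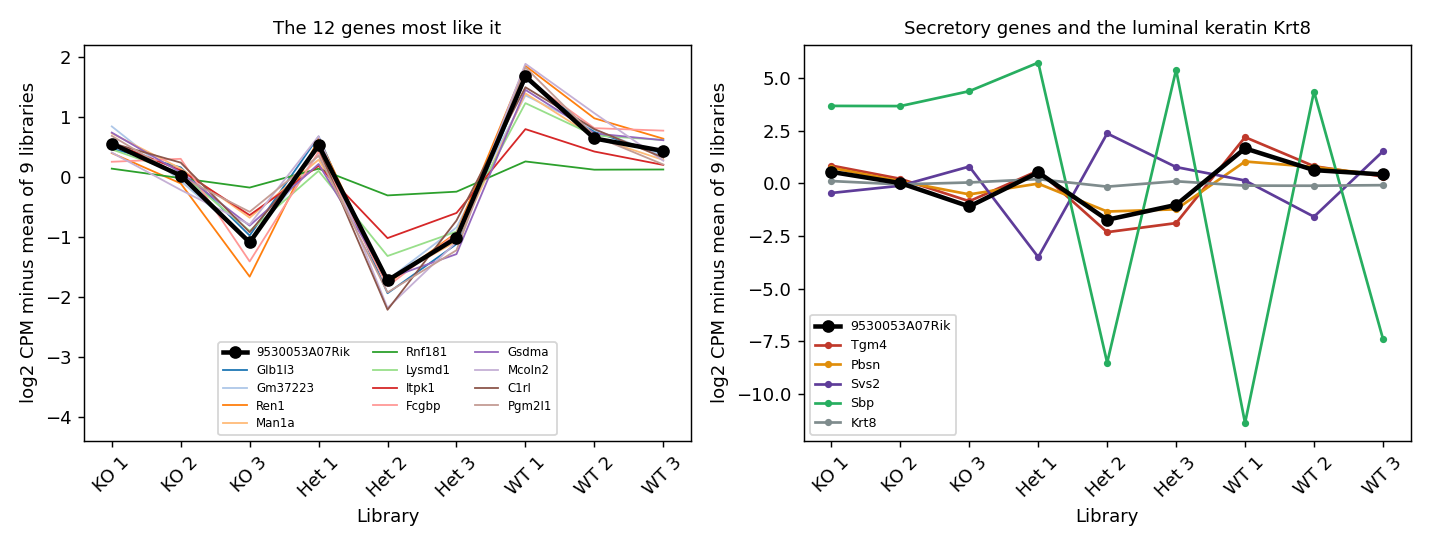
log2 CPM of each gene less its mean over the 9 libraries, by library, with 9530053A07Rik in black. Left, the 12 genes most like it all peak in WT library 1 and are lowest in Het library 2, with Rnf181 over a small range; right, Tgm4 and Pbsn run close to it, Svs2 and Sbp do not, and Krt8 is nearly level.

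At the other end, Enpp4, an ectonucleotidase, had r = -0.989, at 31.2, 35.9 and 45.3 CPM in KO, 35.1, 51.4 and 44.2 CPM in Het, and 25.1, 31.0 and 33.9 CPM in WT. Clic4, a chloride intracellular channel protein, had r = -0.972, with 195 CPM in Het library 2 and 96.1 CPM in WT library 1. Iqgap1, a scaffold of the cytoskeleton (-0.95), Myh10, a non-muscle myosin (-0.935), Extl3, a heparan sulfate glycosyltransferase (-0.934), and Tmem101 (-0.930) followed. Each ran over a range of 0.52 to 1.44 in log2 CPM, less than the 3.40 of 9530053A07Rik.

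Among 20 prostate secretory genes, likeness split by gene. Tgm4, the prostate transglutaminase that cross-links seminal proteins, had 5757, 3721 and 1776 CPM in KO, 4866, 641 and 864 CPM in Het, and 14700.2, 5642 and 4011 CPM in WT (r = 0.976, rho = 0.967). Pbsn, probasin, an androgen-regulated lipocalin, had 10603, 6817 and 4412 CPM in KO, 6293, 2506 and 2695 CPM in Het, and 13044, 10897 and 8315 CPM in WT (r = 0.937, rho = 0.933). Mmp7, matrilysin, had 673, 430 and 203 CPM in KO, 657, 219.6 and 273 CPM in Het, and 1605, 921 and 845 CPM in WT (r = 0.968, rho = 0.933). These 3 of the 20 reached an r of 0.9, against 1.63% of genes at 10 CPM or more, and the median r of the list was 0.05, near the 0.01 of all genes tested. Agr2, a disulfide isomerase of secretory cells, had r = 0.852.

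The ventral lobe gene Sbp (r = -0.16) and its companions Spink1 (-0.21), a trypsin inhibitor, and Sbpl (-0.11) had no such likeness, nor had Msmb, beta-microseminoprotein (-0.30), or Pigr, the polymeric immunoglobulin receptor (0.27). Reads of 9530053A07Rik per Tgm4 read were 11.9, 12.7 and 12.3 in KO, 13.8, 22.0 and 26.6 in Het, and 10.1, 12.8 and 15.6 in WT, a range of 2.64 times. The same ratio to Pbsn ranged over 2.30 times, from 4.95 in KO library 3 to 11.4 in WT library 1. Both ranges were smaller than the 11.6 times of the share itself, and Het libraries 2 and 3 were highest for Tgm4. For each unit of log2 CPM of 9530053A07Rik, log2 CPM changed by 1.31 in Tgm4 and by 0.76 in Pbsn. Neither ratio was thus constant.

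Among the luminal identity and androgen signalling genes, Tmprss2, an androgen-regulated serine protease, had r = 0.943, at 357, 269 and 188 CPM in KO, 249, 159 and 157 CPM in Het, and 447.8, 323 and 258 CPM in WT. Fkbp5, an androgen- and glucocorticoid-responsive co-chaperone, ran the other way (r = -0.679), at 135, 211 and 228 CPM in KO, 337, 237 and 301 CPM in Het, and 80.1, 152 and 172 CPM in WT. These androgen-responsive genes therefore did not share 1 direction along the levels of 9530053A07Rik.

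Secreted proteins rich in cysteine are folded by chaperones and disulfide isomerases of the endoplasmic reticulum. The list of 25 genes for this also holds subunits of translocation and glycosylation complexes and transcription factors of the unfolded protein response. Of the 25, 19 had a positive r with 9530053A07Rik (8582 of 16836 over all genes tested) and none reached 0.9. The median was 0.58, against 0.01 over all genes tested. Ssr4, a subunit of the translocon-associated complex (0.894), Pdia6, a disulfide isomerase (0.874), and Sec61b, of the protein-conducting channel (0.842), were highest. Pdia6 had 1257, 986 and 976 CPM in KO, 1129, 506 and 755 CPM in Het, and 1508, 1782 and 1117 CPM in WT. Ero1lb (-0.844) and Qsox1 (-0.603), both oxidases that make disulfide bonds, ran the other way. Hspa5, the chaperone BiP, had r = 0.775, with 1146 CPM in Het library 2 and 2785 CPM in WT library 2.

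Markers of other cells leaned either way. No gene of the lists for basal epithelium, proximal luminal epithelium, smooth muscle, fibroblasts, endothelium, macrophages, skeletal muscle, urothelium, epididymis and vas deferens or red cells reached an r of 0.9 in size. The red cell genes, 5 of 5 positive with a median r of 0.63, summed to 47.2 to 82.6 CPM in KO, 9.98 to 27.6 CPM in Het and 49.2 to 82.1 CPM in WT, lowest in the Het libraries. The macrophage genes were 6 of 6 positive (median r 0.48) and summed to 65.8 to 102 CPM in KO, 36.3 to 55.4 CPM in Het and 68.4 to 99.5 CPM in WT. The endothelial genes were 5 of 6 positive, with a median r of 0.13. The proximal luminal genes were 8 of 8 negative (median r -0.47), and their sum was mostly Clu, clusterin, at 1303, 1285 and 1608 CPM in KO, 202, 4243 and 1903 CPM in Het, and 901, 426 and 2486 CPM in WT. Krt4, a keratin of that epithelium, instead had 70.4, 145 and 45.4 CPM in KO, 17.7, 11.2 and 8.66 CPM in Het, and 6.06, 13.3 and 13.3 CPM in WT, highest in the KO libraries. The smooth muscle genes were 0 of 6 positive (median r -0.40). The skeletal muscle genes (median r -0.15) summed to 704 to 4334 CPM in KO, 138 to 666 CPM in Het and 342 to 1214 CPM in WT. The part of tissue make-up in the level of 9530053A07Rik was not tested.

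Fcgbp tracked its neighbour at a far lower level. It had 1800, 1798 and 598 reads in KO, 2053, 511 and 784 reads in Het, and 4944, 3283 and 2731 reads in WT (r = 0.980, rho = 0.883). For every 1000 reads of 9530053A07Rik there were 1.45, 2.16 and 1.43 reads of Fcgbp in KO, 1.65, 1.67 and 1.88 in Het, and 1.74, 2.01 and 2.25 in WT. Per length (FPKM), 9530053A07Rik exceeded Fcgbp by 613, 410 and 619 times in KO, 537, 532 and 471.8 times in Het, and 509, 441 and 393 times in WT. The ratio thus moved over a range of 1.57 times, in libraries whose 9530053A07Rik share moved over 11.6 times. Because the pair share exact sequence and the counting program is not named in the sources used here, how many of the Fcgbp reads came from 9530053A07Rik was not tested, and the Fcgbp count is uncertain.

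**Figure D4:**
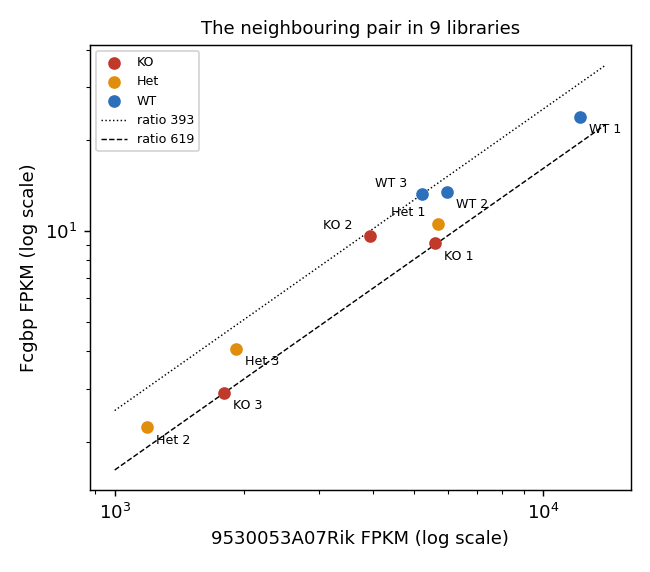
FPKM of Fcgbp against FPKM of 9530053A07Rik in the 9 libraries, both on log scales and coloured by genotype. All libraries lie between the lines of ratio 393 and 619.

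Other genes near 9530053A07Rik did not track it. Within 500 kb, 35 of 55 neighbours were tested, and the 34 other than Fcgbp had a median r of -0.20 and none reached 0.9. The nearest downstream were Gm31024, on the opposite strand 2.46 kb away (2.05 CPM on average, r = 0.12), Fbl, the nucleolar methyltransferase fibrillarin (52.0 CPM, r = -0.10), and Dyrk1b, a kinase (17.7 CPM, r = -0.29). Upstream, beyond Fcgbp, were Gm44744 (0.418 CPM, r = 0.41) and Psmc4, a proteasome ATPase (72.4 CPM, r = 0.54). The highest r was that of Rps16, a ribosomal protein gene (0.79). Rps16 also had the highest mean level of the 34, at 598 CPM.

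**Figure D5:**
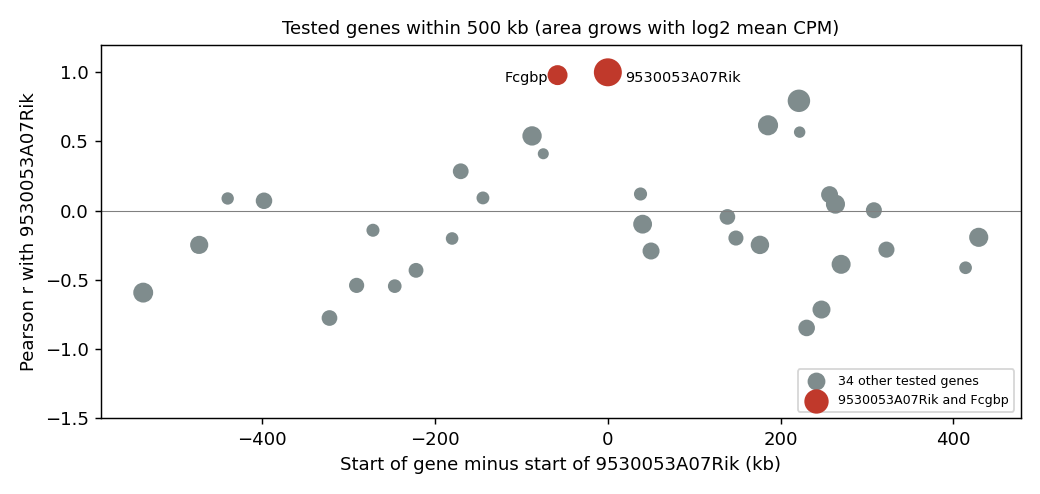
Pearson r with 9530053A07Rik for each tested gene within 500 kb, against the distance between gene starts in kb, with point area growing with log2 mean CPM. Fcgbp is the only neighbour above 0.9, and the other 34 genes scatter between -0.85 and 0.79.

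Most other genes with von Willebrand D domains were near the limit of detection. Of 15 in the list, 7 passed the filter on low counts, and only Fcgbp and Vwf, von Willebrand factor of endothelium and platelets, averaged at least 10 CPM. Vwf stood at 15.9, 24.4 and 8.05 CPM in KO, 2.27, 5.51 and 2.59 CPM in Het, and 14.9, 15.1 and 16.0 CPM in WT, and did not follow 9530053A07Rik (r = 0.45). Muc19, a gel-forming mucin, averaged 5.90 CPM (r = -0.04). Muc5ac and Vwde had no read in any library, and Muc2 averaged 0.0840 CPM.

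The genotype contrasts of the genes around 9530053A07Rik were read from the edgeR fit across all genes. It called 0 of 16836 genes in each of the 3 contrasts (0%, adjusted p under 0.05). Even the targeted gene, Srd5a2, was not called in KO against WT (log2 fold change -2.67, SE 0.62, edgeR adjusted p 0.9996). A count of 0 in this fit is thus no sign that the genotypes were alike. Before adjustment, 601 genes in KO against WT, 1522 in Het against WT and 1048 in KO against Het had a p under 0.05. DESeq2 called 15 (0.0897%), 195 (1.01%) and 180 (0.961%) in the same order of contrasts. Srd5a2 was among the 15 (log2 fold change -2.68, DESeq2 adjusted p 0.026). The DESeq2 calls held none of the 55 neighbours and none of the 12 genes most like 9530053A07Rik. Of those neighbours, 35 passed the filter on low counts. At the shares called over all genes, sets of these sizes would hold few calls or none, so nothing is read from their absence. Of the von Willebrand D domain genes the DESeq2 calls held Vwf and Bmper, lower in Het against WT and higher in KO against Het. Of the prostate secretory genes, DESeq2 called Pbsn (log2 fold change -1.45) and Slc30a2, a zinc transporter (-1.43), lower in Het against WT. It called Acpp, prostatic acid phosphatase, higher in Het against WT (1.30) and lower in KO against Het (-0.97). Of the red cell genes, 3 were lower in Het against WT and the same number higher in KO against Het. Of the 11 seminal vesicle genes, 3 were lower in Het against WT and 5 higher in KO against Het. The abundant members differed from these. In the edgeR fit of Het against WT, 8 of the 11 had negative log2 fold changes, but Svs2 (0.70), Svs5 (0.45) and Pate4 (0.62) had positive ones. The same 3 were the negative ones in KO against Het. In KO against WT, DESeq2 called 2 of the 8 proximal luminal genes higher and 2 of the 25 endoplasmic reticulum genes lower. Some of the other lists also held calls. Fcgbp differed by -1.23 (SE 0.64) in KO against WT, -1.62 (SE 0.65) in Het against WT and 0.39 (SE 0.64) in KO against Het, and Tgm4 by -1.11 (SE 0.88), -1.93 (SE 0.90) and 0.82 (SE 0.87). Pbsn differed by -0.56 (SE 0.42), -1.49 (SE 0.42) and 0.93 (SE 0.42). None of these differences passed over all genes in edgeR (adjusted p from 0.417 to 0.9996), while DESeq2 called Pbsn in Het against WT.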

How the data were processed

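RNA was extracted from mouse prostate with a Qiagen kit and polyA-enriched, per the labels' protocols. The authors deposited raw read counts per gene (whole numbers, not normalised) and FPKM values, which carry a library scaling of 0.907 to 1.10 relative to the plain totals. Per the submitters' processing notes, the reference was GRCm38 (mm10). No aligner, counter or strand setting is named in the sources used here. Genotypes came from the library names in the descriptions, and replicate numbers follow accession order and pair nothing. P-values set differences between genotypes against the spread between libraries, which may be technical.

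Counts were fitted with edgeR 4.0.16 in R 4.3.3 (quasi-likelihood, robust, TMM, filterByExpr, all 9 libraries, genotype as the only factor) and, as an alternative, DESeq2 1.42.0, with Benjamini-Hochberg adjustment over all genes and a threshold of 0.05. The edgeR step was also run on simulated counts with the same spread for all genes, as a check of the code and not of its power here. log2 CPM used a prior count of 2. Transcript sequences were those of GENCODE M21 and promoters those of RefSeq, aligned with Biopython 1.88. Named genes are the 12 highest and 6 lowest in r, those over 1% of reads, 3 tested neighbours on each side and list members (up to 4 of highest mean CPM in lists other than the secretory ones). Rps16, Bmper, Tmprss2, Fkbp5, Ssr4, Sec61b, Ero1lb and Qsox1 were chosen after their values were seen, and Srd5a2 is given as the targeted gene. Some results that the rule names are left out. The gene, lists and rules were chosen with earlier results of these data known.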

Additional observations from a re-analysis of the deposited data

How the results depend on the processing

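Other normalisations, filters and tools moved the log2 fold changes of 9530053A07Rik by less than the spread between libraries. Leaving out each library in turn gave -1.45 to -0.56 in KO against WT, -2.35 to -0.96 in Het against WT and -0.0077 to 1.31 in KO against Het. As a percent of the FPKM sum in place of reads, the mean was 0.829% in KO, 0.612% in Het and 1.98% in WT, since that measure divides by length. Leaving out each library gave mean shares of 3.65% to 6.06% in KO, 1.77% to 4.46% in Het and 6.88% to 11.3% in WT. The denominator without the seminal vesicle list was chosen after seeing the data. The edgeR count of 0 became, with DESeq2, 15 in KO against WT, 195 in Het against WT and 180 in KO against Het, and 2 in KO against Het with no low-count filter. With edgeR and each library left out, the counts were 0 to 1, 0 to 258 and 0 to 18 in that order of contrasts, the upper values all without Het library 1. Of the 12 genes most like 9530053A07Rik, 2 were among the 12 highest by Spearman's rho and 6 by r of deviations from genotype means, although the 12 kept rho of 0.883 to 1 and r of 0.958 to 0.995 there. With each library left out, 6 to 11 of the 12 stayed, so which genes make up the 12 depends on the measure and on single libraries. The cause of these shifts was not tested. No paired analysis was possible because the labels give the groups no shared replicate numbers.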
